A study of Bos taurus with 15 samples.

Results

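Gut smooth muscle is the layer and the scattered bundles of cells that move and hold the wall of the stomach and intestine. Its cells contract when *MYLK*, the myosin light chain kinase, activates smooth muscle myosin (*MYH11*), which then slides along actin filaments built from *ACTA2* and *ACTG2*. Related contractile cells lie in the mucosa: pericytes and vascular smooth muscle surround vessels, and *PDGFRA*-expressing mesenchymal cells beneath the epithelium are known for secreting BMP ligands. The series profiled newborn (NB) calves and adult (AD) Holstein cattle by droplet-based single-cell RNA-seq, with 1 library for each tissue and stage and 15 libraries in all. The cells described here came from the 8 NB libraries of 2 stomach chambers (reticulum and abomasum), the small intestine (duodenum, jejunum and ileum) and the large intestine (cecum, colon and rectum). Muscle layers were removed from the tissues before dissociation. All 8 tissues went through EDTA and trypsin, after which the reticulum and abomasum were digested with collagenases, hyaluronidase, dispase and DNase I and the intestinal tissues with a lamina propria kit. The study's methods describe fewer NB calves than NB tissues, so libraries share animals, but which calf or calves gave which library is not given in the sources used here, and no treatment or altered genotype is stated.

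A barcode was taken as a member when it had 500 to 4000 genes, under 50000 UMIs (counted molecules), at least 1 UMI each of *MYH11* and *ACTG2*, at least 3 of *ACTA2* and none of *PTPRC*, *EPCAM* and *HIGD1B*, which mark leukocytes, epithelium and pericytes. The rule kept 1674 of 65497 barcodes within the gene and UMI limits of the 8 libraries, or 2.56% (exact binomial 95% interval 2.44 to 2.68), out of 132361 such barcodes in the series. The 3 muscle genes alone were met by 2056 barcodes, of which 184 had *EPCAM*, 154 *HIGD1B* and 59 *PTPRC*. The 8 libraries held 62529511 to 125527022 UMIs each, pairs of them shared 6 to 37 barcodes within the limits, of which 0 to 4 a pair were a member in 1 of the 2 libraries and 0 in both. The members' median depth was 2960.0 UMIs in the reticulum and 3858 in the abomasum. It was 4814 to 5346 in the small intestine and 6611 to 7917 in the large intestine.

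The jejunum gave 550 members (4.2% of its barcodes, 3.86 to 4.55), the rectum 395 (5.18%, 4.69 to 5.70) and the abomasum 323 (3.23%, 2.89 to 3.59). The cecum gave 192 (3.0%, 2.60 to 3.45) and the ileum 97 (1.28%, 1.04 to 1.56). The duodenum with 61 (0.719%, 0.550 to 0.923), the colon with 38 (0.791%, 0.560 to 1.08) and the reticulum with 18 (0.240%, 0.142 to 0.378) had the fewest, and the intervals of duodenum and colon overlapped. With 1 library per tissue these shares have no replicate. The intervals cover counting error only.

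The 3 muscle genes chose the members, and their levels are given as a description. A median reticulum member held 19.5 UMIs of *MYH11* and 44 of *ACTA2*, and a median abomasum member 13 and 35. In the intestine the medians of *MYH11* ran from 5 in the duodenum, jejunum and ileum to 9 in the cecum, and those of *ACTA2* from 20 in the ileum to 41 in the jejunum and rectum. *ACTG2*, the enteric actin, had medians of 2 in the duodenum to 7.5 in the reticulum. Just inside the threshold, of the 36 barcodes with exactly 3 UMIs of *ACTA2*, 91.7% had *PDGFRA* and 8.33% had *DES*. Just outside, of the 61 with exactly 2, 83.6% had *PDGFRA* and 11.5% had *DES*.

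**Figure D1:**
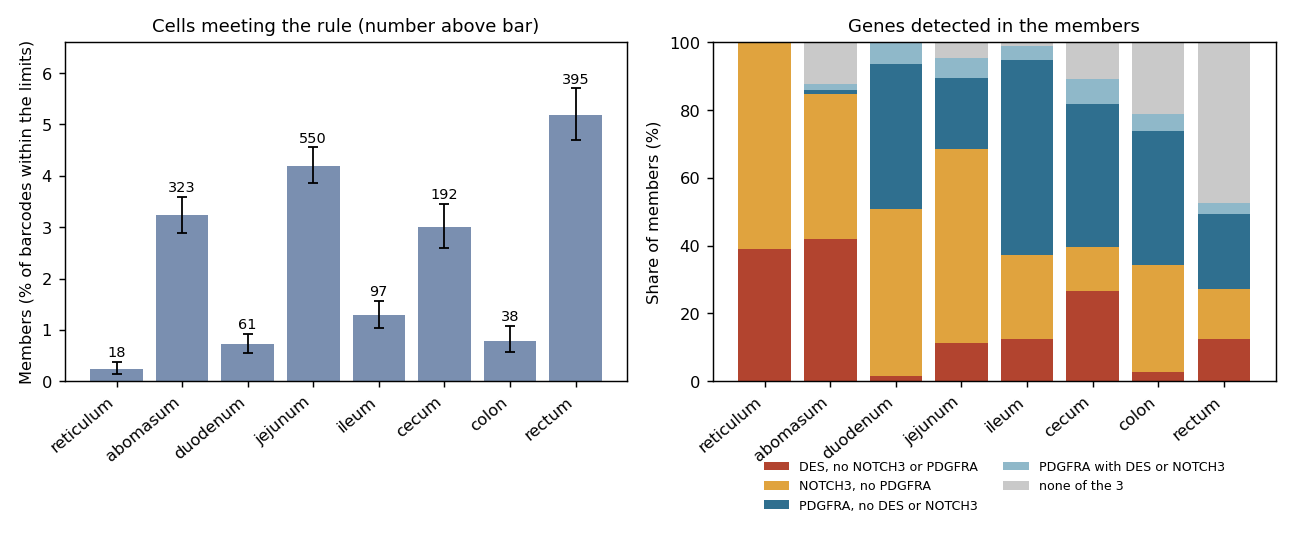
Left, members as a percentage of the barcodes within the gene and UMI limits of each NB library, with exact binomial 95% intervals and the number of members above each bar. Right, the share of the members of each library in which *DES*, *NOTCH3* or *PDGFRA* was detected, from all UMIs of a member; *DES* or *NOTCH3* without *PDGFRA* covers every reticulum member, whereas *PDGFRA* is common in the 6 intestinal libraries.

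Markers outside the rule showed that the label holds for some members more than for others. To compare libraries of different depth, each member was thinned to 2000 UMIs, which left 1599. *DES*, the intermediate filament protein of muscle, was then detected in 92.9% (66.1 to 99.8) of the 14 reticulum members and 65.8% (60.1 to 71.1) of the abomasum members. In the intestine it was found in 35.3% of the cecum members, 22.6% in the jejunum, 20.8% in the ileum, 13.0% in the rectum, 6.67% in the duodenum and 2.86% in the colon. *CNN1*, the actin-binding calponin of smooth muscle, was more widespread and reached 100.0% in the reticulum, 83.4% in the abomasum, 67.3% in the rectum and 52.9% in the cecum, against 21.7% to 40.0% in the other 4 libraries. Leukocytes of the same libraries, thinned in the same way, had *DES* and *CNN1* in at most 1.2%, at median depths of 5169 to 12497 UMIs before thinning.

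Genes known from other mesenchymal cells were detected as well. *PDGFRA*, the receptor that marks fibroblasts and cells beneath the epithelium, was detected in 0 of 14 reticulum members and in 1.99% in the abomasum. By counting error, 0 of 14 allows detection in up to 23.2%, which does not bound the share of cells that express the gene. In the intestine it was found in 51.0% of the ileum members, 40.6% in the cecum, 38.3% in the duodenum, 37.1% in the colon, 24.2% in the jejunum and 18.1% in the rectum, against at most 1.80% of leukocytes. *NOTCH3*, a receptor best known from vessel wall cells, was found in 47.5% of the jejunum members, 35.0% in the duodenum, 32.6% in the abomasum, 28.6% in the reticulum and 19.8% in the ileum. In the colon, rectum and cecum its share was 14.3%, 7.18% and 4.28%. *COL1A2*, a collagen chain of fibroblasts that smooth muscle also makes, was detected in 61.8% to 95.2% of the members. Pericyte markers other than the excluded *HIGD1B* differed in how often they were detected. *RGS5*, a regulator of receptor signalling known from pericytes, was detected in 67.8% of the rectum members, 60% in the colon, 48.3% in the duodenum, 47.1% in the cecum, 41.7% in the ileum, 29.6% in the jejunum, 22.3% in the abomasum and 0% in the reticulum. *NDUFA4L2*, a mitochondrial protein, was detected in 41.7% in the duodenum, 37.2% in the jejunum and 14.3% in the colon, and in at most 10.4% in the other libraries. *COX4I2*, an isoform of a respiratory chain subunit, was detected in 34.2% in the jejunum, 23.3% in the duodenum, 21.4% in the reticulum and 21.3% in the abomasum, and in 1.07% to 5.71% in the large intestine. Of the channel subunits *KCNJ8* and *ABCC9*, the highest shares were 15% and 13.3%, both in the duodenum. Leukocytes had *RGS5* in at most 1.08%, *NDUFA4L2* in at most 0.473% and *COX4I2* in at most 0.355%. Detection of *PECAM1* of endothelium (at most 3.65%), *KIT* of interstitial cells of Cajal (at most 1.86%) and *MSLN* of mesothelium (at most 0.266%) was rare. Per 1000000 UMIs, 9 endothelial markers summed to 194 to 984 in members and 135 to 2415 in the other barcodes within the limits. The 5 Cajal markers summed to 50.2 to 291 in members, above the other barcodes (11.2 to 67.0) in each of the 8 libraries. The 7 mesothelial markers summed to 0 to 101 against 167 to 1383.

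**Figure D2:**
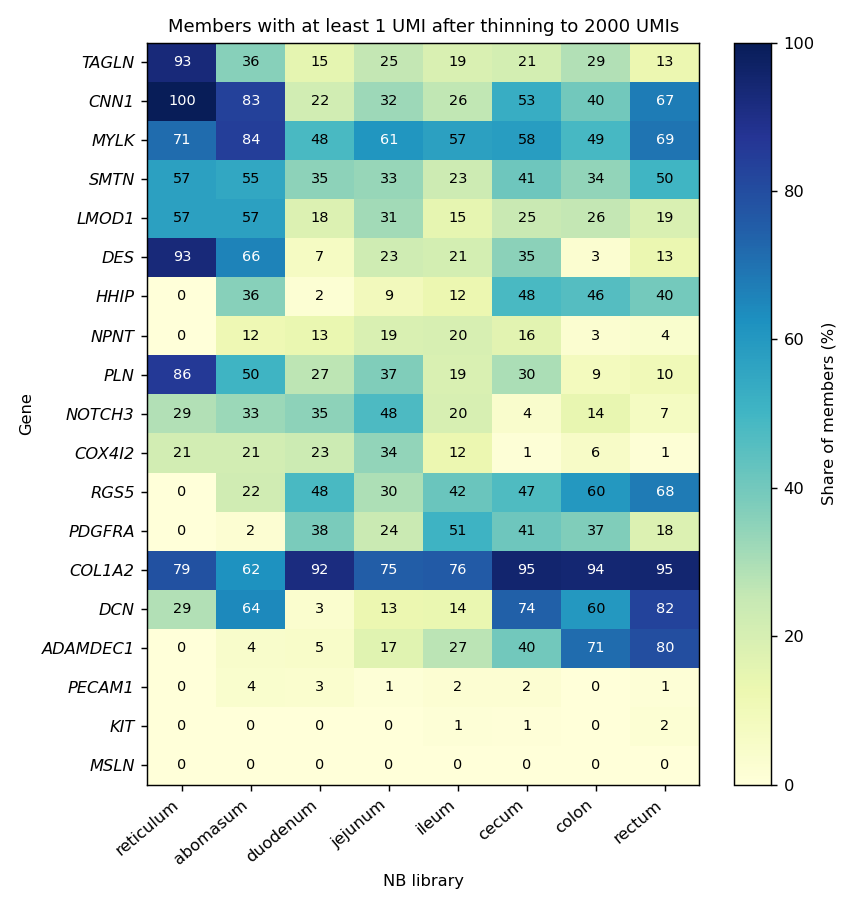
Percentage of members with at least 1 UMI of a gene after thinning each member to 2000 UMIs, by gene and NB library, with the percentage written in each cell. *DES* and *CNN1* are highest in the reticulum and abomasum, *PDGFRA* is at 0% and 1.99% there and between 18.1% and 51.0% in the intestine, and *PECAM1*, *KIT* and *MSLN* are near 0 throughout.

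*DES*, *NOTCH3* and *PDGFRA* were then used to describe how the members differ among themselves. These classes were chosen after their values had been seen, so they carry no test, and an undetected gene is not an absent one. *NOTCH3* without *PDGFRA* was detected in 612 members (36.6%), *DES* without *NOTCH3* or *PDGFRA* in 319 (19.1%), *PDGFRA* without the others in 385 (23.0%), *PDGFRA* together with *DES* or *NOTCH3* in 76 (4.54%), and none of the 3 in 282 (16.8%). Of the 461 members with *PDGFRA*, 16.5% also had *DES* or *NOTCH3*, against 76.8% of the 1213 without it. Within the abomasum 6 of the 9 members with *PDGFRA* also had *DES* or *NOTCH3*, and in the jejunum 33 of 149. The *NOTCH3* class held more members than any other class in the reticulum (11 of 18), the abomasum (138 of 323), the duodenum (30 of 61) and the jejunum (314 of 550), and the *PDGFRA* class in the ileum (56 of 97), the cecum (81 of 192) and the colon (15 of 38). Members with both *NOTCH3* and *DES* were put in the *NOTCH3* class, so its rank over the *DES* class follows in part from that order. In the thinned members of reticulum and abomasum, *DES* was detected more often than *NOTCH3*. Of the 323 abomasum members, 138 had *NOTCH3* (with or without *DES*) and no *PDGFRA*, 136 had *DES* and neither of the others, 40 had none of the 3 and 9 had *PDGFRA*. In the rectum the class with none of the 3 genes was the largest, with 187 of 395 members (47.3%).

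Members with *PDGFRA* and neither *DES* nor *NOTCH3* are called *PDGFRA* members here, and some contractile genes and some secreted factors set them apart. Levels are given as CPM, the UMIs of a gene per 1000000 UMIs summed over the cells of a class in a library, and compare 1 gene between classes. Over the 5 libraries with at least 20 cells of each kind (duodenum, jejunum, ileum, cecum and rectum), 76 of 3480 genes (2.18%) were at least 2-fold higher in each library in *PDGFRA* members than in members with *DES* or *NOTCH3* and no *PDGFRA*, with 20 CPM added, and 45 (1.29%) were at least 2-fold lower. *CNN1* was at 91.8, 113, 139.6, 153 and 341 CPM in *PDGFRA* members of those libraries and at 248, 948, 1402, 4106 and 3752 CPM in the others. *MYLK*, the kinase that starts contraction, averaged 250.3 against 1634 CPM, and *PLN*, the regulator of the calcium pump of the sarcoplasmic reticulum, 6.50 against 351 CPM. Of the 12 genes of the thin filament, 4 were lower in *PDGFRA* members in each library (*CNN1*, *TPM1*, *TPM2* and *CRYAB*) and 0 higher. Of 15 genes of myosin, its kinase and its phosphatase, 2 were lower (*MYL9* and *MYLK*) and 0 higher, with a median log2 ratio of −0.15 against 0.06 over all genes. Of 21 genes of the intermediate filament, dense body and adhesion plaque, 2 were lower (*SYNM* and *PDLIM3*) and 1 higher (*FHL2*). *IGF2*, a fetal growth factor, was at 33.4, 44.2, 3.41, 11 and 79.0 CPM in *PDGFRA* members and at 9751, 6579, 6087, 196 and 714 CPM in the others.

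Among signalling genes the *PDGFRA* members had some higher and some lower. Of 15 genes of hedgehog, WNT and BMP signalling, 6 were at least 2-fold higher in *PDGFRA* members of each library: *BMP2*, *BMP4* and *BMP5*, which restrain proliferation of the epithelium, the WNT antagonists *SFRP1* and *DKK2*, and *DKK3*, a member of the DKK family. In that list 0 were lower. Of 19 growth factor and neural guidance genes, 2 were higher (*FGF9* and *CXCL12*) and 3 were lower (*IGF2*, *IGFBP5* and *PDGFA*). *BMP4* was at 1528, 1238, 2101, 1424 and 1223 CPM in *PDGFRA* members of duodenum, jejunum, ileum, cecum and rectum, and at 24.8, 36.1, 41.3, 487 and 331 CPM in the members with *DES* or *NOTCH3*. The ranges did not overlap, and the gap was narrower in the large intestine. *BMP5* averaged 694 against 53.6 CPM, the chemokine *CXCL12* 827 against 47.0 CPM, the lipid carrier *APOD* 913 against 10.4 CPM, the BMP modulator *SMOC1* 507 against 2.69 CPM, and *TNFRSF6B*, a decoy receptor for death ligands, 1063 against 34.8 CPM.

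*NOTCH3* members and *DES* members differed less, but the *NOTCH3* members include those that also had *DES*. Over abomasum, jejunum, cecum and rectum, 17 of 3067 genes (0.554%) were at least 2-fold higher in each library in *NOTCH3* members and 0 were lower. Among the 17 were genes known from vessel walls: *COX4I2* averaged 236 against 19.2 CPM, the gap junction protein *GJA4* 130.3 against 8.90 CPM, and *HEYL*, a target of Notch signalling, 148 against 31.1 CPM. By list, 1 of 5 Notch and vessel wall genes (*HEYL*) and 1 of 4 pericyte markers (*COX4I2*) reached 2-fold in each library. *COX4I2* was at 345, 492, 52.8 and 52.4 CPM in *NOTCH3* members of abomasum, jejunum, cecum and rectum and at 40.4, 36.2, 0 and 0 CPM in *DES* members. No gene of the contractile lists reached 2-fold in each library. *CNN1* had a mean of 3708 CPM in *DES* members against 1742 CPM in *NOTCH3* members and *SMTN*, smoothelin of contractile smooth muscle, 827 against 526 CPM. The median log2 ratio of *NOTCH3* to *DES* members was −0.12 over the thin filament list and 0.18 over the myosin list, against −0.03 over all genes. Members with none of the 3 genes had 1 of 3149 genes (0.0318%) at least 2-fold above *DES* members in each of 4 libraries and 2 (0.0635%) below. Set against *PDGFRA* members in 3 libraries they had 29 of 3429 genes (0.846%) above and 45 (1.31%) below. Their median depth was 3058 UMIs in the jejunum against 4886 in *DES* members. In the rectum, which held 187 of the 282, it was 6482 against 5595, and the part of depth in their composition was not tested.

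**Figure D3:**
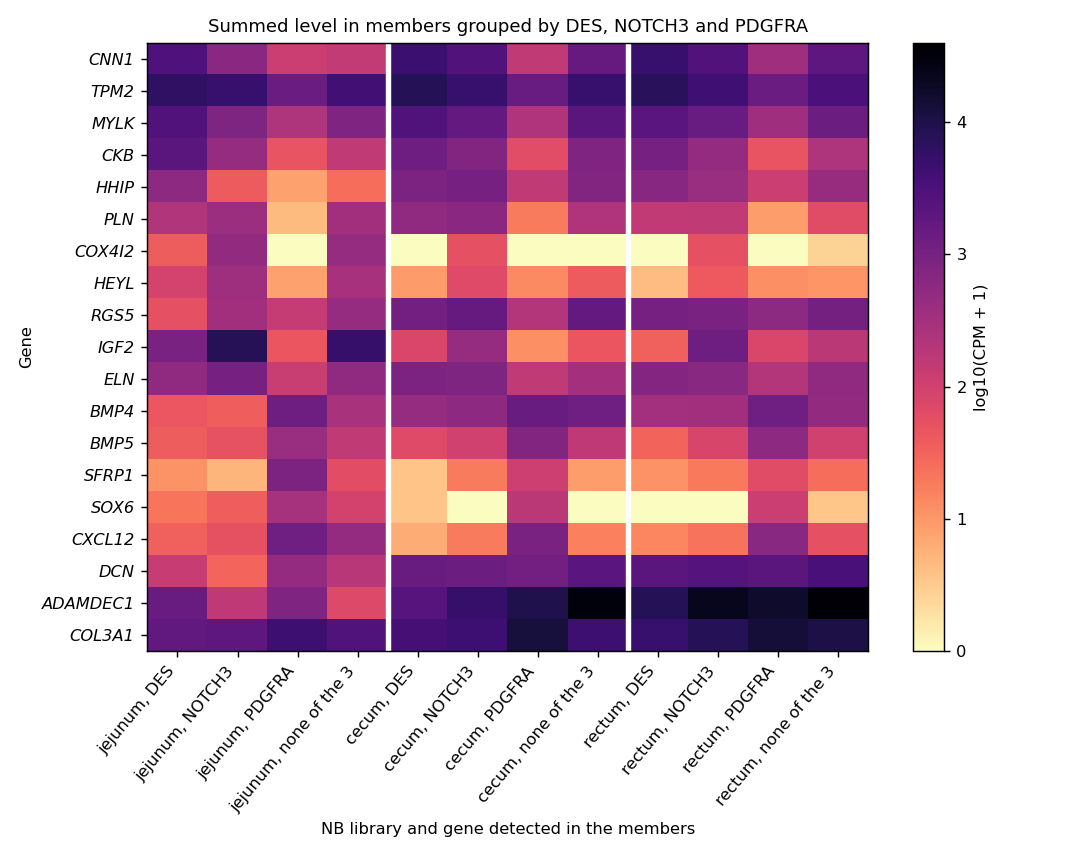
Level of 19 genes, as log10(CPM + 1) of summed UMIs, in members of the NB jejunum, cecum and rectum grouped by the detection of *DES*, *NOTCH3* and *PDGFRA*. *PDGFRA* members are low in *CNN1*, *MYLK*, *CKB* and *PLN* and high in *BMP4*, *BMP5*, *SOX6* and *CXCL12* in each of the 3 libraries, and *COX4I2* is highest in *NOTCH3* members.

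Beside fibroblasts of the same libraries (2393 barcodes with *PDGFRA* and at least 3 UMIs of *COL1A2* and without *MYH11*, *PTPRC*, *EPCAM* and *HIGD1B*), the pooled members had more of the contractile apparatus. Both groups were chosen by such genes, so these values are descriptive. In each of 7 libraries 62 of 3259 genes (1.9%) were at least 2-fold above the fibroblasts, with 5 CPM added, and 40 (1.23%) were at least 2-fold below; the reticulum had under 20 fibroblasts. *PLN* led the list, with a log2 ratio of 3.73 to 6.38, followed by *CNN1* with 3.04 to 6.71, the creatine kinase *CKB* with 2.76 to 4.39 and *LMOD1*, a nucleator of actin filaments, with 2.52 to 4.51. Genes of the thin filament were above fibroblasts in 7 of 12 cases with a median log2 ratio of 2.44, and genes of the intermediate filament, dense body and adhesion plaque in 10 of 21 with a median of 1.68, against a median of 0.11 over all genes. Fibrillar and elastic matrix genes were at least 2-fold above in 0 of 30 cases and below in 5, with a median of −1.01. The acute phase protein *SAA3*, with log2 ratios of −7.23 to −3.55, and the eosinophil chemokine *CCL11*, with −6.48 to −3.34, were the furthest below.

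Pericytes (402 barcodes with at least 2 UMIs of *HIGD1B* and 1 of *RGS5* or *NOTCH3*) reached 20 cells in the abomasum, duodenum, jejunum and ileum. There 78 of 3320 genes (2.35%) were at least 2-fold higher in members in each library and 51 (1.54%) lower. *CNN1* was at 1445, 190.2, 705 and 736 CPM in members and 7.79, 0, 40.2 and 0 CPM in pericytes of the 4 libraries. *DES* was at 1240.4, 143, 1216 and 1356 CPM against 38.9, 9.15, 41.6 and 51.9 CPM, and *MFAP2*, a protein of elastic microfibrils, had log2 ratios of 3.80 to 5.20. *KCNJ8*, the potassium channel subunit that marks pericytes, was at 19.4, 83.2, 52.8 and 29.2 CPM in members and 420.4, 416, 306 and 439.6 CPM in pericytes. Against the other cell types the members stood further apart, with 269 of 3645 genes above endothelial cells (7.38%) and 302 below (8.29%), 719 of 3411 above epithelial cells (21.1%) and 95 below (2.79%), and 581 of 3598 above leukocytes (16.1%) and 273 below (7.59%), each by at least 2-fold in 7 libraries.

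The members of the 2 intestinal regions were compared over libraries: the 3 of the small intestine (duodenum, jejunum and ileum) against the 3 of the large intestine (cecum, colon and rectum), on UMIs of the members summed per library. The p-values measure the spread between the tissues of a region and not between animals, since libraries share calves in a way that is not given in the sources used here. Region and calf cannot be told apart. With edgeR's quasi-likelihood test and Benjamini-Hochberg adjustment, 499 of 8674 genes passed at 0.05 (5.75%), 276 higher in the small intestine (3.18%) and 223 higher in the large intestine (2.57%). For 94 of the 276 and 44 of the 223, members lay below the other barcodes of a library in the higher region. Without regard to a test, CPM of the regions did not overlap for 1212 genes higher in the small intestine (14%) and 882 higher in the large intestine (10.2%). The count fell to 158 without the rectum, 181 without the jejunum, 203 without the cecum and 277 without the duodenum. Of the 499, 19 reached the minimum of 10 UMIs in 3 libraries through the region in which they were higher alone, and their calls follow in part from that filter. An exact permutation test of 3 libraries against 3 could not go below p = 0.1 for a single gene.

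Of the contractile genes, 3 of 12 in the thin filament, 0 of 15 in the myosin list and 3 of 24 in the dense body list passed between the regions, beside 5.75% of all genes. Of 12 thin filament genes, the small heat shock protein *HSPB1* was higher in the small intestine, and *SMTN* and *HSPB6*, another small heat shock protein, were higher in the large intestine, with a median log2 difference of −0.14 (small minus large) against −0.0046 over all genes. *HSPB1* lost its call without any 1 library but the ileum (adjusted p = 0.0703 to 0.0975), *SMTN* without the cecum or the rectum (0.0510 and 0.0527), and *HSPB6* without the jejunum, the cecum or the rectum (0.0517, 0.0537 and 0.0659). Of 15 genes of myosin, its kinase and its phosphatase, 0 passed in either direction (median 0.04). Of 24 genes of the intermediate filament, dense body and adhesion plaque, *ITGA7* was higher in the small intestine, and *ITGA5*, a fibronectin receptor subunit, and the filamin *FLNC* in the large intestine (median −0.21); *FLNC* lost its call without any 1 library but the colon (adjusted p = 0.0629 to 0.128), and *ITGA5* without the cecum (0.0520). Among *NOTCH3* members without *PDGFRA*, a subset chosen after seeing the data, 1 thin filament gene was higher in the small and 4 in the large intestine of 12, and 3 and 8 of 22 in the dense body list, beside 4.14% and 5.91% of all 3621 genes tested in that subset. *MYLK* was at 577, 878 and 1164 CPM in duodenum, jejunum and ileum and 1209, 1090.2 and 1158 CPM in cecum, colon and rectum, and the regions overlapped (log2 difference −0.43 ± 0.24 SE, adjusted p = 0.364). *CNN1* was at 190.2, 705 and 736 CPM against 1730.1, 876 and 1985 CPM and did not pass (−1.51 ± 0.48, adjusted p = 0.111). *DES* varied more within a region than between them, at 143, 1216 and 1356 CPM against 1783, 51.1 and 708 CPM (0.06 ± 0.97, adjusted p = 0.993). *SMTN* was at 256, 222 and 181 CPM in the small and 534, 385 and 490.4 CPM in the large intestine (−1.15 ± 0.20, adjusted p = 0.0127). *MYOCD*, the coactivator that switches on smooth muscle genes, was 1 of 21 transcription factors and the only 1 of them that was higher in the large intestine, at 8.92, 8.44 and 5.16 CPM against 20.1, 37.5 and 49.5 CPM (−2.21 ± 0.43, adjusted p = 0.0200). It lost its call without the duodenum, the jejunum or the rectum (adjusted p = 0.0550, 0.0983 and 0.106). Few UMIs stand behind its duodenum and ileum values. Higher in the small intestine were 6 of the 21, among them *KLF4*, a repressor of smooth muscle genes, at 238, 233 and 244 CPM against 25.3, 37.5 and 55.5 CPM (2.51 ± 0.28, adjusted p = 0.00222). Of the 6, *KLF4*, *TBX3* and *NR2F2* passed without the duodenum or the cecum, and *KLF4* and *TBX3* without the jejunum or the rectum.

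HOX genes are the homeobox genes that pattern the body axis, and posterior genes of the *HOXA* cluster were higher in the large intestine. Of 39 HOX genes, 10 had enough UMIs to be tested, and *HOXA9*, *HOXA10* and *HOXA11* were higher in the large intestine, while *HOXB2* was higher in the small intestine. Over all genes these shares were 2.57% and 3.18%. *HOXA10* and *HOXA11* reached the minimum of 10 UMIs only in the 3 large intestine libraries, so their calls follow in part from the filter, and both went untested when any 1 of those libraries was left out. Of the HOX genes tested, 0 were then higher in the large intestine without the cecum or the rectum and 1 without the colon. *HOXA11* had 0 UMIs in all 3 small intestine libraries and 90.9, 133 and 65.4 CPM in cecum, colon and rectum, at least 98.6-fold higher against a floor of 3 UMIs over the small intestine. *HOXA10* was at 0, 0 and 3.44 CPM against 109.8, 109 and 81.0 CPM, a ratio of summed CPM of 174 with a counting interval of 48.0 to 1445 on 2 UMIs in the small intestine. *HOXA9* was at 0, 0.704 and 27.5 CPM against 127, 106 and 109 CPM (−4.24 ± 0.82, adjusted p = 0.0190), with the ileum between the duodenum and the cecum. It no longer passed without the duodenum, the cecum or the rectum, with adjusted p of 0.0620, 0.0558 and 0.0595, or with DESeq2 (0.177). The anterior *HOXA3* (1.76 ± 0.58, adjusted p = 0.125) and *HOXA5* (−0.55 ± 0.41, adjusted p = 0.524) did not pass. *HOXB2* was at 41.6, 101 and 86.0 CPM against 1.30, 37.5 and 6.09 CPM (3.44 ± 0.70, adjusted p = 0.0237) and lost its call without the jejunum, the cecum or the rectum, with adjusted p of 0.107, 0.0902 and 0.154, or with DESeq2 (0.305). *PITX1*, a homeobox factor known from the hindlimb, was at 5.94, 5.98 and 25.8 CPM against 222, 215 and 301 CPM (−4.55 ± 0.45, adjusted p = 0.00176).

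Many matrix genes were higher in the large intestine. Of 33 fibrillar and elastic matrix genes, 16 were higher there and 1, *POSTN*, was higher in the small intestine, with a median log2 difference of −1.28. Over all genes, 2.57% were higher in the large and 3.18% in the small intestine. Higher in the large intestine were 10 of 26 such genes without the jejunum, 11 of 26 without the rectum and 11 of 33 without the duodenum. In these fits 76 of 6557, 75 of 6567 and 116 of 8639 of all genes were higher there. The summed level of the list was 8067, 8575 and 9216 CPM in duodenum, jejunum and ileum and 21393, 19525 and 27458 CPM in cecum, colon and rectum. In fibroblasts it was 33114, 23152 and 25977 CPM against 61411, 31960 and 68263 CPM, with a median log2 difference of −0.71. The interaction of cell type and region, described below, passed for 4 of 31 matrix genes. *FN1*, *LTBP1* and *LUM* lay further to the large intestine in members, and *ELN* further to the small. *COL3A1*, a chain of reticular collagen, was at 3002, 2747 and 3318 CPM against 8407, 7945 and 10334 CPM (−1.60 ± 0.17, adjusted p = 0.00198). *DCN*, the proteoglycan decorin, was at 44.6, 182 and 194 CPM against 1282, 1219.7 and 2652 CPM (−3.59 ± 0.52, adjusted p = 0.00688). *TNC*, tenascin C, was at 44.6, 77.7 and 80.8 CPM against 368, 552 and 288 CPM (−2.52 ± 0.29, adjusted p = 0.00276). *ELN*, elastin, did not pass (0.17 ± 0.39, adjusted p = 0.875). Of 10 fibroblast markers, 6 were higher in the large intestine and 0 in the small intestine; 5 of the 6 (*COL1A1*, *COL1A2*, *COL3A1*, *DCN* and *LUM*) are also among the 16 matrix genes, and *ADAMDEC1* is not. The sum of the markers was 6168 to 8723 CPM against 25169 to 45915 CPM. Among members with 0 UMIs of *PDGFRA*, a subset chosen after seeing the data, 20 of 30 matrix genes and 8 of 9 fibroblast markers (median −2.51) were higher in the large intestine and 0 of either list in the small intestine, beside 4.88% and 4.53% of all 6575 genes tested in that subset. Among members with *PDGFRA* alone, 7 of 28 matrix genes were higher in the large and 2 in the small intestine, beside 0.794% and 1.6% of all 5671 genes tested there.

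Among the other genes with the largest differences, those higher in the large intestine included *NT5E*, the ecto-enzyme CD73 that makes adenosine, at 0, 4.93 and 8.60 CPM against 120.1, 204 and 179.6 CPM (−5.01 ± 0.41, adjusted p = 0.00132). *ADAMDEC1*, a secreted protease of the intestinal lamina propria, was at 44.6, 709 and 1509 CPM in duodenum, jejunum and ileum and 9093, 17379 and 24740.0 CPM in cecum, colon and rectum (−4.53 ± 0.95, adjusted p = 0.0257). It rested on the jejunum and the rectum, without which the adjusted p was 0.103 and 0.0756. *ACTA1*, the skeletal muscle actin, was at 0, 12.7 and 3.44 CPM against 88.3, 123 and 212 CPM (−4.02 ± 0.55, adjusted p = 0.00542). *CTHRC1*, a secreted protein of matrix-forming cells, was at 11.9, 16.5 and 1.72 CPM against 214, 139.7 and 679 CPM (−4.88 ± 0.73, adjusted p = 0.00760). *PTCH1*, receptor and target of hedgehog signalling, was at 71.3, 97.1 and 175 CPM against 509.8, 521 and 574 CPM (−2.25 ± 0.29, adjusted p = 0.00385), and *GLI1*, its transcription factor, was also higher in the large intestine. Of 24 genes of hedgehog, WNT and BMP signalling, 4 were higher in the large intestine (*PTCH1*, *GLI1*, *WNT2B* and *BMP2*) and 4 in the small intestine (*DKK2*, *ID1*, *ID2* and *ID4*), beside 2.57% and 3.18% of all genes. The count higher in the large intestine was 2 of 19 without the jejunum, the cecum or the rectum, beside 76 of 6557, 98 of 6634 and 75 of 6567 genes. The chemokine *CXCL9* (−3.84 ± 0.73, adjusted p = 0.0179) and *CHODL* (−4.16 ± 0.68) completed the 10, and *CXCL9* lost its call without the rectum (adjusted p = 0.0515). Of the 20 genes with the largest differences, 10 reached the minimum of 10 UMIs only in the 3 libraries of the higher region (*HOXA10*, *HOXA11*, *CHODL*, *MAP3K7CL*, *GCGR*, *AK5*, *BDA20*, *SLC38A11*, *MAP2* and *B3GALT2*), so for them no adjusted p is given. *CHODL* did not pass without the jejunum, nor with at least 3 UMIs of *MYH11* and *ACTG2* and 5 of *ACTA2* in a member.

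Those higher in the small intestine included *MAP3K7CL* at 98.1, 216 and 110.0 CPM against 2.60, 20.4 and 1.90 CPM (5.27 ± 0.64) and *COX4I2* at 321, 311 and 101 CPM against 5.84, 27.3 and 8.37 CPM (4.64 ± 0.58, adjusted p = 0.00360). *ITGA7*, the integrin that anchors muscle to laminin, was at 143, 184 and 60.2 CPM against 7.14, 23.8 and 4.95 CPM (4.08 ± 0.56, adjusted p = 0.00549). *GCGR*, the glucagon receptor, had 3 UMIs in all large intestine members, and its summed CPM was 86.6 times higher in the small intestine (counting interval 29.2 to 423). For *AK5*, an adenylate kinase, the ratio was 62.5 (counting interval 21.0 to 306), also on 3 UMIs. The others were *BDA20*, with a ratio of 381 on 2 UMIs (105 to 3157), *SLC38A11* (5.82 ± 0.91), *PLCE1* (4.41 ± 0.52, adjusted p = 0.00288), *MAP2* (4.41 ± 0.55) and *B3GALT2* (4.20 ± 0.49). *BDA20* and *SLC38A11* did not pass without the rectum.

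Of 27 growth factor and neural guidance genes, 5 were higher there (*IGF2*, *IGFBP2*, *PDGFA*, *TGFB2* and *VEGFA*) and 0 in the large intestine, beside 3.18% and 2.57% of all genes, although the median over the list was −0.55. Higher in the small intestine were 2 of 24 without the cecum, beside 105 of all 6634 genes, and 2 of 24 without the rectum, beside 83 of 6567. *IGF2* was at 5855, 4907 and 2613 CPM against 78.6, 511 and 295 CPM (3.93 ± 0.61, adjusted p = 0.00897). *TGFB2*, a ligand of the TGF beta family, was at 107, 102 and 55.0 CPM against 5.20, 6.81 and 7.23 CPM (3.73 ± 0.34, adjusted p = 0.00176). *NOTCH3* was at 389, 442 and 182 CPM against 33.8, 143 and 39.6 CPM (2.47 ± 0.55, adjusted p = 0.0310), and it lost its call without the duodenum, jejunum, cecum or rectum (adjusted p = 0.0844 to 0.146). The *NOTCH3* class made up 49.2%, 57.1% and 24.7% of the members in duodenum, jejunum and ileum and 13.0%, 31.6% and 14.7% in cecum, colon and rectum, with the colon above the ileum, so a change per cell and a change in composition cannot be told apart in the sums. *RGS5* went the other way, at 479, 261 and 385 CPM against 713, 1097 and 905 CPM (−1.33 ± 0.24, adjusted p = 0.0148), and lost its call without the rectum (0.0527). Of 8 pericyte markers, 3 were higher in the small intestine (*ABCC9*, *COX4I2* and *NOTCH3*) and 1, *RGS5*, in the large intestine (median 2.09). The rule's exclusion of *HIGD1B* was uneven among barcodes that met the 3 muscle genes. It left out 18 of 89, 89 of 689 and 8 of 113 in duodenum, jejunum and ileum. In cecum, colon and rectum it left out 5 of 216, 4 of 46 and 6 of 472. The part of this exclusion in the contrast was not tested. Of 7 Notch and vessel wall genes, 2 were higher in the small intestine (*HES1* and *NOTCH3*) and 0 in the large intestine (median 1.07).

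**Figure D4:**
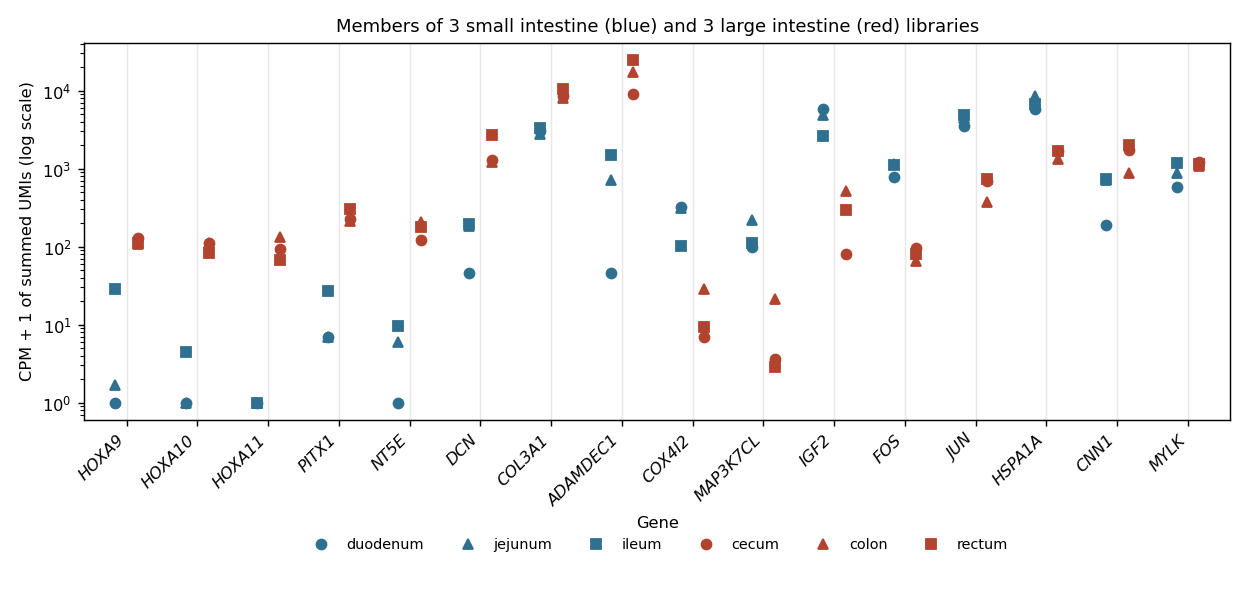
CPM + 1 of members' summed UMIs on a log axis for 16 genes, with 1 point for each of the 3 small intestine libraries (blue) and 3 large intestine libraries (red). The regions are apart for *HOXA9* to *ADAMDEC1* (higher in the large intestine) and *COX4I2* to *HSPA1A* (higher in the small intestine), stand apart for *CNN1* without passing the test, and overlap for *MYLK*.

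Of the gene lists, the 15 immediate early and heat shock genes, which cells switch on quickly after a stimulus or under stress, had the largest share of genes past the test. In members 13 of the 15 were higher in the small intestine and 0 in the large intestine, beside 3.18% and 2.57% of all genes. The median log2 difference of the 15 was 2.22. The count was 8 without the jejunum, 9 without the cecum or the rectum and 12 without any 1 of the other libraries. Over all genes, 105 of 6557 were higher in the small intestine without the jejunum, 105 of 6634 without the cecum and 83 of 6567 without the rectum. Without the duodenum, the ileum or the colon it was 161 of 8639, 277 of 8593 and 303 of 8664. *FOS* was at 773, 1128 and 1124 CPM in duodenum, jejunum and ileum and at 96.1, 64.7 and 79.5 CPM in cecum, colon and rectum (3.59 ± 0.24, adjusted p = 0.000830). *JUN*, its partner in the AP-1 factor, was at 3469, 4391 and 4874 CPM against 683, 375 and 732 CPM (2.78 ± 0.28, adjusted p = 0.00176). *HSPA1A*, an inducible chaperone, was at 5814, 8466 and 6709.9 CPM against 1701, 1336 and 1692 CPM (2.12 ± 0.21, adjusted p = 0.00176). The chaperones *HSPA8* (0.79 ± 0.22, adjusted p = 0.0757) and *HSP90AA1* (0.42 ± 0.24, adjusted p = 0.372) did not pass. Of 19 cell division genes, 6 were higher in the small intestine (*MCM4*, *MCM5*, *MCM7*, *PCNA*, *TPX2* and *TYMS*), beside 3.18% of all genes. Most of the 6 are replication factors, and for *PCNA* members lay below the other barcodes of a small intestine library. The proliferation marker *MKI67* was at 20.8, 21.8 and 53.3 CPM against 24.0, 23.8 and 17.1 CPM (0.52 ± 0.38, adjusted p = 0.506). The 6 became 3 of 18 without the jejunum or the cecum, 2 of 18 without the rectum and 4 of 19 without the duodenum. The counts over all genes in these fits are those given above for the early genes. Among members with *PDGFRA* alone 0 of the 15 cell division genes tested there passed (median −0.25), where 1.6% of all genes were higher in the small intestine. Counts of the cell division list in the other subsets are not given here. The cell division list summed to 929 to 1494 CPM in members of the small intestine and 446 to 657 CPM in those of the large intestine, and to 634 to 4078 CPM and 870.4 to 1801 CPM in the other barcodes of these libraries.

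The difference in early genes was larger in members than in fibroblasts of the same 6 libraries. The summed level of the 15 genes was 20698, 29526 and 24981 CPM in small intestine members and 8212, 5356 and 8536 CPM in large intestine members. In fibroblasts it was 7238, 15228 and 9209 CPM against 9752, 6311 and 12574 CPM, and the regions overlapped. An edgeR quasi-likelihood test of the interaction of cell type and region, with library as a block, passed for 231 of 8671 genes (2.66%), among them 13 of the 15 early genes. Its values come from 1 fit of both cell types and need not equal the difference of the log2 values fitted for each alone. For *FOS* the log2 difference was 3.59 ± 0.37 larger in members (adjusted p = 0.000617), for *JUN* 2.43 ± 0.23 (0.000422) and for *HSPA1A* 2.06 ± 0.32 (0.00606). Fibroblasts had *FOS* at 152, 348 and 237 CPM against 144, 339.9 and 248 CPM. The remaining barcodes within the limits summed to 10559, 27103 and 16384 CPM of these genes in the small and 34833, 16487 and 21550.2 CPM in the large intestine, also overlapping. Members of the small intestine had lower median depth than those of the large intestine, and the part of depth in this result was not tested. The pattern held within classes chosen after seeing the data: 11 of 15 early genes were higher in the small intestine among *NOTCH3* members without *PDGFRA* and 9 of 15 among members with *PDGFRA* alone, beside 4.14% and 1.6% of all genes tested in these subsets.

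**Figure D5:**
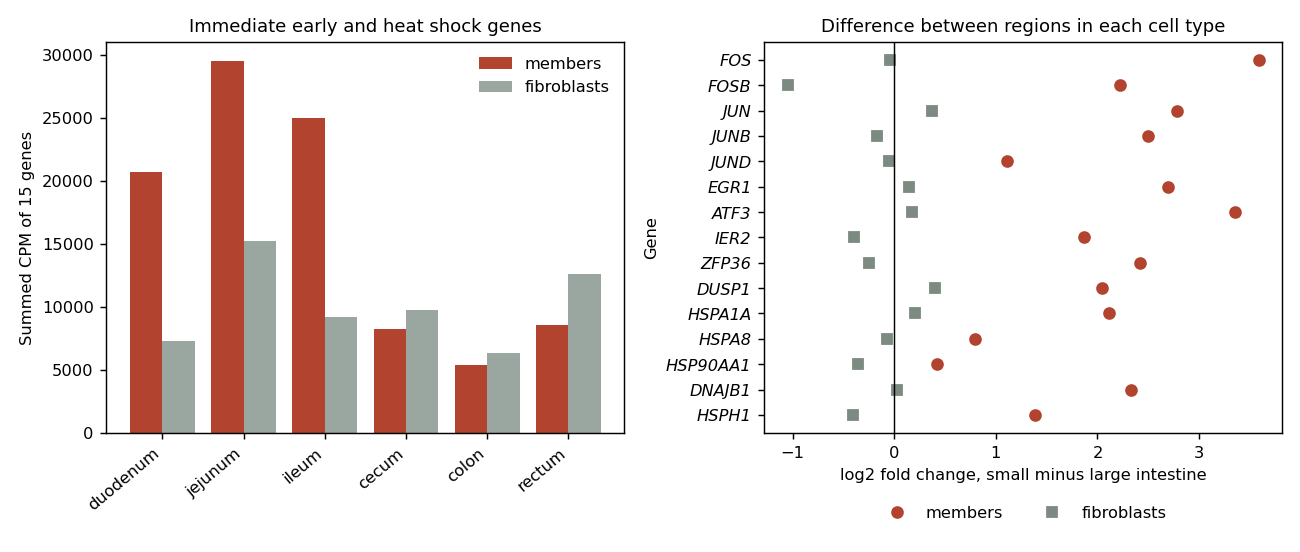
Left, summed CPM of 15 immediate early and heat shock genes in members and fibroblasts of the 6 NB intestinal libraries. Right, the log2 fold change of each gene between small and large intestine (small minus large) in both cell types; members lie to the right of fibroblasts for all 15 genes, and 13 passed the test of that difference.

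Other differences between regions also departed from those in fibroblasts. *TGFB2* had a log2 difference of −2.25 in fibroblasts (adjusted p = 0.0156), opposite to that in members, and the interaction was 6.17 ± 0.38 (adjusted p = 2.49e-05). *IGF2*, at 1893, 657 and 677 CPM against 1711, 839 and 889 CPM in fibroblasts, had an interaction of 4.43 ± 0.79 (adjusted p = 0.0127). For *KLF4* the log2 difference in fibroblasts was −0.68 (adjusted p = 0.211) and the interaction 3.28 ± 0.30 (adjusted p = 0.000396). *ELN* was lower in small intestine fibroblasts by the same test (−2.45, adjusted p = 0.00905) and did not pass in members, with an interaction of 2.52 ± 0.44 (adjusted p = 0.0111). For *DES* the interaction was −2.76 ± 0.62 (adjusted p = 0.0389), with fibroblasts at 0 to 86.8 CPM. By the test of each cell type alone, its log2 difference was 0.06 in members (adjusted p = 0.993) and 2.15 in fibroblasts (adjusted p = 0.0263). Of 19 cell division genes the interaction passed for 6 (*BIRC5*, *CENPF*, *NUSAP1*, *TOP2A*, *TPX2* and *UBE2C*), each further to the small intestine in members, and the median log2 difference of the list was 1.03 in members and −0.34 in fibroblasts. Of these genes only *TPX2* also passed between the regions in members alone. For the positional genes the interaction did not pass: *HOXA9* had a log2 difference of −5.86 in fibroblasts (adjusted p = 0.00293) and an interaction of 0.44 ± 0.60 (adjusted p = 0.862), and *PITX1* −4.46 (0.00157) and −0.36 ± 0.62 (0.905). Of the 10 HOX genes tested, 0 had an interaction that passed. *HOXA11* was at 0 CPM in the small intestine in both cell types, so its interaction could not be estimated and could not pass. *HOXA10* rested on 2 UMIs in small intestine members (−1.02 ± 1.43). An interaction that did not pass does not show that the difference was the same in both cell types.

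The stomach libraries are 1 for each chamber, so their members were set beside the intestinal range without a test. In the abomasum 37 of 3270 genes (1.13%) were at least 2-fold above the highest intestinal library and 109 (3.33%) at least 2-fold below the lowest. *BARX1*, the homeobox factor that specifies stomach mesenchyme, was at 444 CPM in the abomasum and 218 CPM in the reticulum, against 0 to 20.4 CPM in the intestine. *NKX2-3*, a factor of intestinal mesenchyme, was the reverse, at 5.97 and 0 CPM in the stomach chambers and 116 to 239 CPM in the intestine. *BMP4* was at 94.8 CPM in abomasum members and 352 to 1145 CPM in the intestine. It was high in *PDGFRA* members, and 9 of 323 abomasum members had *PDGFRA*. Among *DES* members *BMP4* was at 84.5 CPM in the abomasum and 42.8, 455 and 324 CPM in jejunum, cecum and rectum. The part of class composition in the pooled values was not tested. Members of the abomasum also held UMIs of the epithelial genes *CYM*, *PGA5* and *TFF2*, and the epithelial list summed to 21892 CPM against 225500.0 CPM in the other barcodes of that library. Reticulum members, with 18 cells, had 276 of 3890 genes (7.1%) at least 2-fold above the highest intestinal library and 610 (15.7%) at least 2-fold below the lowest; few UMIs stand behind these values. *CCN3*, a matrix-associated growth regulator, was at 318 CPM there on 19 UMIs (exact Poisson 95% interval 191 to 496). *TPM2*, beta-tropomyosin, was at 11947 CPM in the reticulum, 5140.2 CPM in the abomasum and 2036 to 4186 CPM in the intestine. Among *DES* members the abomasum was lower, at 5012 CPM against 6436, 8029 and 7049 CPM in jejunum, cecum and rectum.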

How the data were processed

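Single-cell suspensions were sequenced by 10x Genomics 3′ v3 chemistry. The authors aligned reads to ARS-UCD1.2 with Cell Ranger 3.1.0 and deposited UMI counts per gene and barcode for each library; the annotation release is not given in the sources used here, and their cell annotation was not used here. Barcodes were selected by the rule stated at the start of the report, with no doublet caller and no mitochondrial limit, each tried as an alternative; 140 members were among the highest Scrublet scores. The members, gene lists and comparisons were chosen with earlier results of these data known.

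UMI counts of members were summed per library and scaled to CPM (counts per 1000000 counts). The small and large intestine were compared with edgeR 4.0.16 (R 4.3.3; quasi-likelihood test, TMM normalisation, Benjamini-Hochberg adjustment over all genes with at least 10 UMIs in at least 3 of the 6 libraries, threshold 0.05), and members with fibroblasts by an interaction term with library as block. The interaction was fitted on genes that reached this minimum in members, whatever their level in fibroblasts. DESeq2 1.42.0 was an alternative. Scripts were tested on simulated data. Remaining steps used scanpy 1.11.5, pandas 2.3.3, SciPy 1.17.1 and NumPy 2.4.6 under Python 3.11.15. Fold changes of genes with up to 3 UMIs in a region are given as ratios with exact counting intervals. Comparator cells needed at least 20 barcodes in a library.

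Named in the text are the genes of the rule, examples from the gene lists, the 10 genes with the largest fold change in each direction (adjusted p at most 0.05, regions not overlapping, at least 20 CPM, not below the other barcodes of the library), and for descriptive contrasts genes leading by their smallest ratio over libraries. Single-gene coordinates and sequences were not analysed here. Some marker results are not reported here.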

Additional observations from a re-analysis of the deposited data

Results flagged for a closer look

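The difference between small and large intestine was not the same in members and in fibroblasts for 231 of 8671 genes by edgeR's quasi-likelihood test of the interaction (Benjamini-Hochberg adjusted). Of these genes, 147 leaned further to the small intestine in members and 84 further to the large intestine, 125 also passed in members alone and 22 in fibroblasts alone. The 8671 genes were chosen by at least 10 UMIs in at least 3 libraries of members, whereas the test of fibroblasts alone had its own filter. A gene with too few UMIs in fibroblasts could not pass there, so the 125 and the 22 cannot be set against each other. Among the genes with the largest regional differences, the interaction (the log2 fold change in members minus that in fibroblasts, from 1 fit of both) was 5.34 for *PLCE1* (adjusted p = 0.00708), with 0 to 24.8 CPM in fibroblasts. It was 7.06 for *AK5*, 6.84 for *MAP3K7CL*, 5.72 for *B3GALT2* and 5.08 for *MAP2*, which reached the UMI minimum in members only in the small intestine, so no adjusted p is given for them. For *ITGA7* it was 6.42, more than the log2 difference of 4.08 in members. Fibroblasts held at most 2.29 CPM of *AK5*, 1.79 CPM of *MAP3K7CL* and 2.75 CPM of *ITGA7* in any of the 6 libraries, so their own regional difference in these genes, and with it the size of the interaction, rests on few UMIs. *ADAMDEC1* had an interaction of −4.02 (adjusted p = 0.00898), with 4437 to 26394 CPM in fibroblasts and 44.6 to 24740.0 CPM in members.

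The same rule was met by barcodes of libraries outside the 8. The AD colon gave 25 (0.268% of its barcodes, 0.173 to 0.395), the NB liver 16 (0.126%, 0.0718 to 0.204) and the NB omasum 4 (0.0364%, 0.00993 to 0.0933). The NB salivary gland gave 2, the AD jejunum 3, and the AD duodenum and AD cecum 0, which allows shares of up to 0.0355% and 0.0382%.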

How the results depend on the processing

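The number of members fell from 1674 to 970 with at least 3 UMIs of *MYH11* and *ACTG2* and 5 of *ACTA2*. Of 499 genes called between small and large intestine, the count became 1129 with no filter on low counts, 273 with at least 50 UMIs in 3 libraries, 263 with 38 members drawn from each library and 136 among *PDGFRA* members without *DES* or *NOTCH3* (chosen after seeing the data), all over fewer or more genes or cells; leaving out 1 library gave 158 to 554. The share of calls higher in the large intestine was 44.7%, and 58.8% in *NOTCH3* members and 33.1% in *PDGFRA* members. Among *PDGFRA* members *SMTN* and *NR2F2* changed sign without passing (log2 0.42, adjusted p = 0.802, and −0.78, adjusted p = 0.604). DESeq2 called 468 genes, of which 405 were shared, and it did not call *HOXA9*. *PDGFA* and *PCNA* lost their calls without the cecum (adjusted p = 0.0594 and 0.0835) or the rectum (0.0668 and 0.0721), and *POSTN* under the stricter rule (0.0896). The interaction count of 231 of 8671 genes became 94 of 4093 with at least 50 UMIs, 181 with DESeq2 (172 shared) and 245 with fibroblasts also required to have 3 UMIs of *DCN* (220 shared). Over all members, *DES* was detected in 29.5% thinned to 2000 UMIs, 35.1% unthinned and 25.3% at 1000 UMIs, *CNN1* in 52.5%, 64.7% and 42.8%, *PDGFRA* in 22.7%, 27.5% and 16.0%, and *NOTCH3* in 27.1%, 39.1% and 19.6%. No paired analysis was possible because each tissue is 1 library and replicate numbers follow accession order only; the interaction with fibroblasts has library as its block. With 18 members in the reticulum and 38 in the colon, few UMIs stand behind low genes there.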
